A study of Homo sapiens with 6 samples.

Results

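Antioxidant and metal-response genes were followed in LPS-stimulated THP-1 macrophages in which the circular RNA hsa_circ_0004287 had been targeted by siRNA. The set holds 34 genes of the NRF2 pathway, glutathione, thioredoxin, iron and zinc, and its rows were found by gene symbol. Of these, 33 had a row in the table of 19976 genes, and GPX1 was not analysed here. SOD2 had 2 rows, so the 33 genes filled 34 rows, and 32 of the rows had enough counts to be tested. THP-1 is a human monocytic leukaemia line, turned here into macrophage-like cells with 50 ng/ml of the phorbol ester PMA for 48 h. The circ siRNA group then received 200 nM siRNA against hsa_circ_0004287 for 48 h, and the control siRNA group 200 nM NC siRNA for the same time. Both groups received 200 ng/ml LPS, a bacterial activator of TLR4, for the last 3 h, so neither group shows the unstimulated state. Each group had 3 libraries of poly-A RNA. The labels number these libraries and are silent on whether each stands for its own culture, so the p-values reflect spread among libraries that could be technical. A circular RNA carries no poly-A tail and has no row in the table, so the depth of the knockdown was not analysed here.

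NRF2, the product of NFE2L2, is a transcription factor that KEAP1 holds in the cytoplasm and hands over for degradation. Oxidants and electrophiles modify KEAP1, and NRF2 then binds antioxidant response elements (AREs) beside genes for glutathione synthesis, thioredoxin reduction, NADPH supply, haem breakdown and ferritin. In macrophages these enzymes limit damage from their own oxidative burst and handle the iron of engulfed red cells. Zinc is sensed by MTF1, which binds metal response elements (MREs) beside metallothionein and zinc exporter genes. Ferritin, ferroportin and transferrin receptor mRNAs carry iron-responsive elements (IREs), hairpins bound by iron regulatory proteins when iron is scarce.

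The regulatory letters of the members the results turn on are given first. Promoters were RefSeq windows (GRCh38.p14) from 250 bases before to 50 bases after each start, and 23 of the 33 members matched, with 33 windows. The others were FTH1, GSR, HMOX1, MT1E, MT1F, MT1G, PRDX1, SLC39A14, SLC7A11 and SOD1. The MRE was searched as TGCACNC or TGCGCNC and the ARE as TGACNNNGC, on both strands and with overlapping matches counted. At least 1 MRE stood in 18 of the 33 member windows, which belong to 16 members, and in 29.6% of all 35116 windows. At least 1 ARE stood in 9 of the 33, which belong to 8 members, and in 13.3% of all windows. Windows of a gene with several starts overlap and are not independent. The full letters TGACTCAGC, which also contain the AP-1 motif TGACTCA, stood in the windows of ME1 and MT2A and in 0.561% of all windows.

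The metallothionein promoters are shown because they held the most MREs of any member. The window of MT2A held 8 and that of MT1X held 4, and 0.601% of all windows held 4 or more. The stretches below end at the base before the start, on the plus strand at chr16:56608412-56608583 for MT2A and chr16:56682298-56682469 for MT1X. Capitals mark the MREs on either strand, 6 in the MT2A stretch and 4 in the MT1X stretch.
MT2A: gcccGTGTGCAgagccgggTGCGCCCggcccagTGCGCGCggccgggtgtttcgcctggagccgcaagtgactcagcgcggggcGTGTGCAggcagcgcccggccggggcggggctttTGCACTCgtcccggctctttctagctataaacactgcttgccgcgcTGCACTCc
MT1X: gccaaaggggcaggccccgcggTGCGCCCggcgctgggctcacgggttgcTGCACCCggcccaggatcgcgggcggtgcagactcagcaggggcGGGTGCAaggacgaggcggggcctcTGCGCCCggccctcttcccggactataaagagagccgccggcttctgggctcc

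SLC39A8 and ME1 were the tested members whose groups of libraries did not overlap, so an element found in their promoters is shown. SLC39A8 has 3 windows, of which 1 held an MRE and the other two none, and the ME1 window held 2 AREs, of which the one before the start is printed. GCLM and TXNRD1, known NRF2 targets, are set beside ME1 for their AREs. The windows of NQO1, GCLC, TXN, SRXN1, FTL, TALDO1 and OSGIN1 held no ARE. The stretches lie at chr4:102345584-102345613 (minus strand) for SLC39A8, chr6:83431169-83431198 (minus strand) for ME1 and chr1:93909445-93909474 (minus strand) for GCLM. TXNRD1 has a match before each of 2 starts, at chr12:104215670-104215699 and chr12:104286923-104286952 (both plus strand). Capitals mark the MRE in SLC39A8 and the ARE, on either strand, in the rest.
SLC39A8: ggccggcggtccTGCGCCCcggcgtggacg
ME1: tctcctgccaTGACTCAGCgcttctcgcag
GCLM: tacgatttctGCTTAGTCAttgtcttccag
TXNRD1 start 1: acacgggctaTGACTTCGCtgttgtcaccg
TXNRD1 start 2: gatttctGCTTTGTCAttctgactctggca

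IREs were searched in GENCODE 29 transcripts (GRCh38) as the loop CAGTGN closed by 5 base pairs above an unpaired C. Of 19684 coding genes, 258 (1.31%) held a match, and 4 members were among them. TFRC held 4, and was the only coding gene with that many. They are shown because TFRC was highest in the libraries where ferritin was lowest. Each stretch is 30 bases with the loop in capitals, and the loop begins at base 71 of the FTH1 transcript, 47 of FTL, 211 of SLC40A1, and 3400, 3804, 3869 and 3916 of TFRC. A match in any of these searches is a description of letters and not evidence of binding.
FTH1: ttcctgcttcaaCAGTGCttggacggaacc
FTL: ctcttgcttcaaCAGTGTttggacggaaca
SLC40A1: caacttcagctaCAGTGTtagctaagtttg
TFRC 1: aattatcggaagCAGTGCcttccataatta
TFRC 2: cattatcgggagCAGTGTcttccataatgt
TFRC 3: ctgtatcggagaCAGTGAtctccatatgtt
TFRC 4: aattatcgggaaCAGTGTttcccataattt

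Total counts ran from 14793902 to 16736972 in the circ siRNA libraries and from 15874084 to 16588112 in the control siRNA libraries. Circ library 3 and control library 1 stood apart from the others, at -38.4 and -23.2 on a first principal component that held 53.4% of the variance, where the other libraries lay between -1.51 and 30.4. Of the macrophage and monocyte markers, CD14, CSF1R, SPI1, TYROBP, ITGAM, FCGR2A, CD163 and LYZ had at least 70 counts in every library. CD68 and MRC1 had 1 to 6 counts, and 97.4% of the 50-base stretches of the CD68 transcript also occur in transcripts of other genes. The 10 macrophage markers summed to 1868.8 to 2880.9 CPM (counts relative to the TMM-scaled library total) in the circ siRNA libraries and to 2327.9 to 3050.7 CPM in the control siRNA libraries. Erythroid markers, which would bring ferritin and TFRC with them, summed to at most 0.246 CPM with circ siRNA and 0.194 CPM with control siRNA, with HBA2 and HBB at 0 counts in all libraries. Epithelial markers summed to 0.123 to 0.641 CPM with circ siRNA and 0.172 to 0.713 CPM with control siRNA, with EPCAM at 0. The 5 B cell markers summed to 34.8 to 40.1 CPM with circ siRNA and 23.0 to 25.4 CPM with control siRNA, groups that do not overlap. Nearly all of that sum was CD22, with 33.9 to 38.7 CPM with circ siRNA and 22.1 to 23.5 CPM with control siRNA (a log2 difference of 0.67, with an adjusted p of 0.265 in edgeR and 0.00252 in DESeq2), while MS4A1 had at most 3 counts in any library. The 5 neutrophil markers summed to 42.4 to 50.3 CPM with circ siRNA and 32.9 to 42.7 CPM with control siRNA. Among them CSF3R did not overlap between the groups, at 32.7 to 38.1 CPM with circ siRNA and 27.4 to 30.8 CPM with control siRNA. ELANE overlapped, and FCGR3B had at most 2 counts in any library. Fibroblast markers summed to 11.2 to 17.2 CPM with circ siRNA and 14.7 to 18.3 CPM with control siRNA. T and NK cell markers summed to 3.40 to 4.30 and 2.93 to 6.44 CPM in the same order. Hepatocyte markers summed to 0.641 to 2.15 and 1.58 to 2.14 CPM. All tested genes of these lists had negative log2 fold changes. Of these, GNLY did not overlap, at 1.218 to 1.658 CPM with circ siRNA and 1.664 to 2.592 CPM with control siRNA (edgeR adjusted p = 0.791). The part of other cells in the values of the set was not tested. In bulk RNA, fewer cells of a type and less RNA per cell cannot be told apart.

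The set covered a wide range of abundance. Member rows took 2.47%, 2.61% and 1.81% of all counts in circ siRNA libraries 1 to 3, against 2.03%, 2.499% and 2.46% in control siRNA libraries 1 to 3. Per kilobase of gene length, FTL was the most abundant, with 11034.4 CPM per kb with circ siRNA and 11712.5 CPM per kb with control siRNA. FTH1 followed with 2358.4 CPM per kb with circ siRNA and 2617.1 CPM per kb with control siRNA. The next in order were TXN, PRDX1, SOD2, MT2A and GPX4, which lay between 149.7 and 251.8 CPM per kb in both groups and whose order differed between the groups. This order depends on the listed lengths, which can exceed that of a transcript. SOD2, listed at 16.4 kb, had 3428.3 CPM with circ siRNA and 2940.7 CPM with control siRNA. TKT is listed at 9.50 kb, while its longest coding transcript has 3010 bases. NFE2L2 itself had 88.1 CPM per kb with circ siRNA and 86.8 CPM per kb with control siRNA. The lowest were SLC40A1, SRXN1 and the second SOD2 row, at 0.136 to 0.261 CPM per kb with circ siRNA and 0.0980 to 0.165 CPM per kb with control siRNA.

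**Figure D1:**
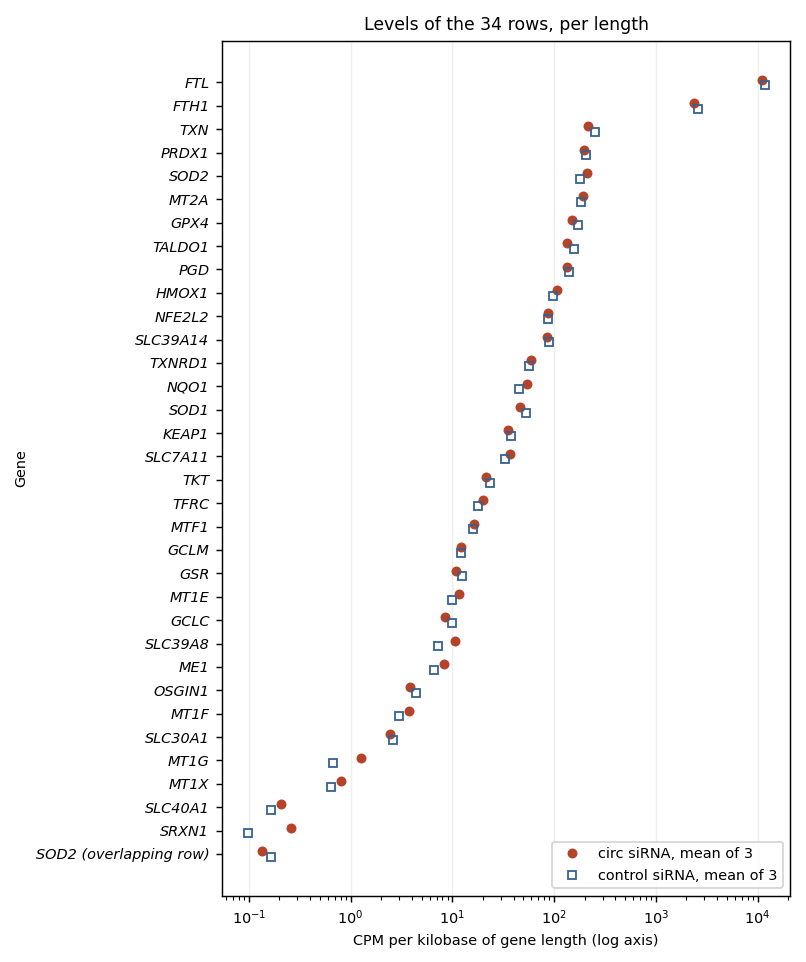
Mean level of each row in CPM per kilobase of gene length (log axis), with circ siRNA as filled circles and control siRNA as open squares (n = 3 libraries each). FTL and FTH1 lie far above the other rows in both groups, and the markers of the groups lie close together for most genes.

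After circ siRNA, 0 member rows passed the test as higher and 0 as lower (edgeR quasi-likelihood test, Benjamini-Hochberg over 12469 genes, lowest adjusted p = 0.403). Of all tested genes, 0% were called higher and 0.00802% lower. Log2 fold changes, circ siRNA over control siRNA, were positive for 17 member rows and negative for 15, with a median of 0.02, against -0.01 over all tested genes. The median size of a member's difference was 0.17 on the log2 scale, against 0.16 over all tested genes. An unadjusted p under 0.05 was found for 2 members with a higher value, against 3.77% of all tested genes, and for 0 with a lower value, against 2.68%. These were SLC39A8 and ME1. They were also the 2 tested rows whose circ siRNA libraries all lay above the control siRNA libraries, which 6.64% of all tested genes showed, while 0 tested rows lay below throughout, against 5.87% of tested genes. The 95% interval of the log2 fold change lay within 1 unit either side of 0 for 29 of the 32 rows, and its median half-width was 0.47. Without control library 1 and circ library 3, which leaves 2 libraries a group, edgeR called HMOX1, NQO1, SLC7A11, SOD2, MTF1 and SLC39A8 higher, while 7.38% of all tested genes were called higher. TALDO1 was called lower there, as were 7.43% of all tested genes.

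**Figure D2:**
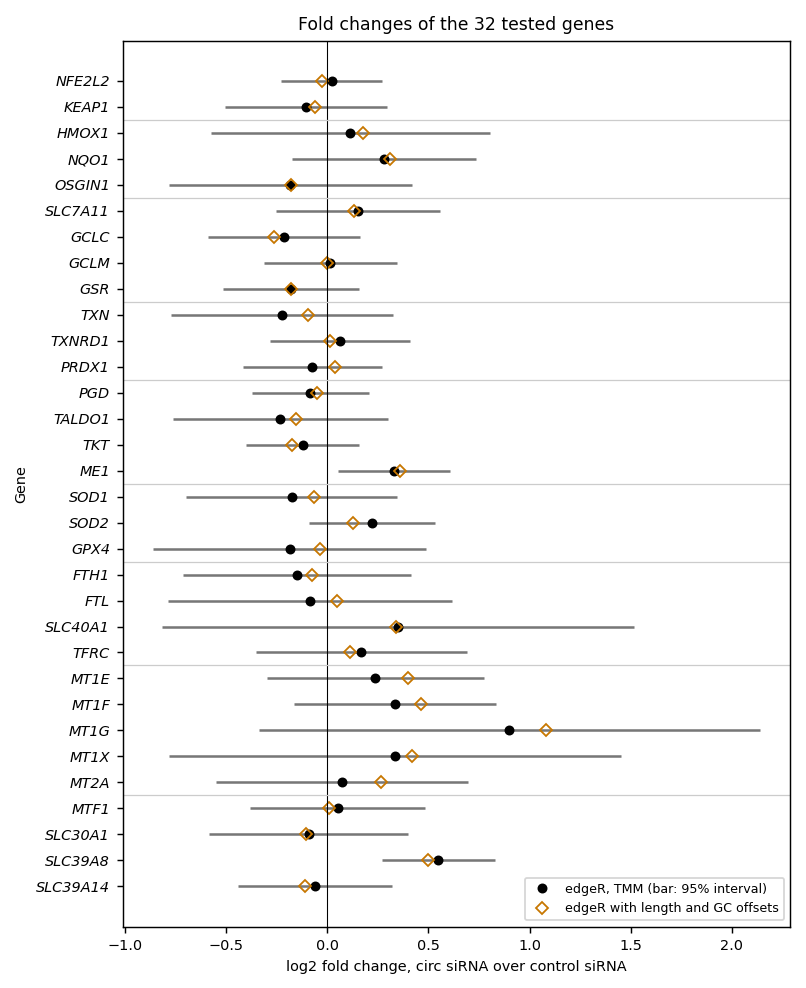
Log2 fold change of each tested row, circ siRNA over control siRNA, from edgeR with TMM scaling (filled circles, bars are 95% intervals) and from the fit with length and GC offsets (open diamonds). The bars of SLC39A8 and ME1 lie right of 0 and those of the other 30 rows cross it.

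Differences between libraries within a group were large for several members. In several libraries they ran with gene length, most of all in control library 1. For each gene, the mean deviation of circ library 3 and control library 1 from the 6-library mean of log2 CPM was taken. By this mean, all 12 tested members shorter than 2500 bp, among them FTL, FTH1, HMOX1, TXN, SOD1, GPX4 and the metallothioneins, were below 0, with a median of -0.40. Of all 1766 tested genes that short, 83.7% were below 0, with a median of -0.28. Of 13 members of 5000 bp or more, 9 were above 0 (median 0.09), against 69.5% of 6554 such genes (median 0.12). The mean joins libraries that differed for the members. In control library 1 all 12 short members were below 0, against 82.6% of all tested genes that short. Of the 13 long members 10 were above 0 there, against 67.7% of all tested genes that long. In circ library 3 these were 8 of 12 and 6 of 13, against 77% and 64.8% of all tested genes of those lengths. Across the 32 tested rows, Spearman's rho of deviation with length was 0.84 in control library 1 and 0.18 in circ library 3. Over all 12469 tested genes it was 0.47 and 0.39, so the wide gap between these libraries was limited to the member rows. These values describe genes, which are not independent. In circ library 3, MT1E, MT1F, MT1G and MT2A were above their mean, by 0.16, 0.04, 0.22 and 0.15 on the log2 scale, and the longer GCLC and OSGIN1 were low, at -0.40 and -0.53. The fit with length and GC offsets takes each library's trend out and is quoted below for several of the short genes and for SOD2 and SLC39A8. Among the 28 members over 10 CPM, the median coefficient of variation within the group was 11.3% with circ siRNA and 19.9% with control siRNA, against 11.6% and 13.5% over 7980 tested genes above that level.

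**Figure D3:**
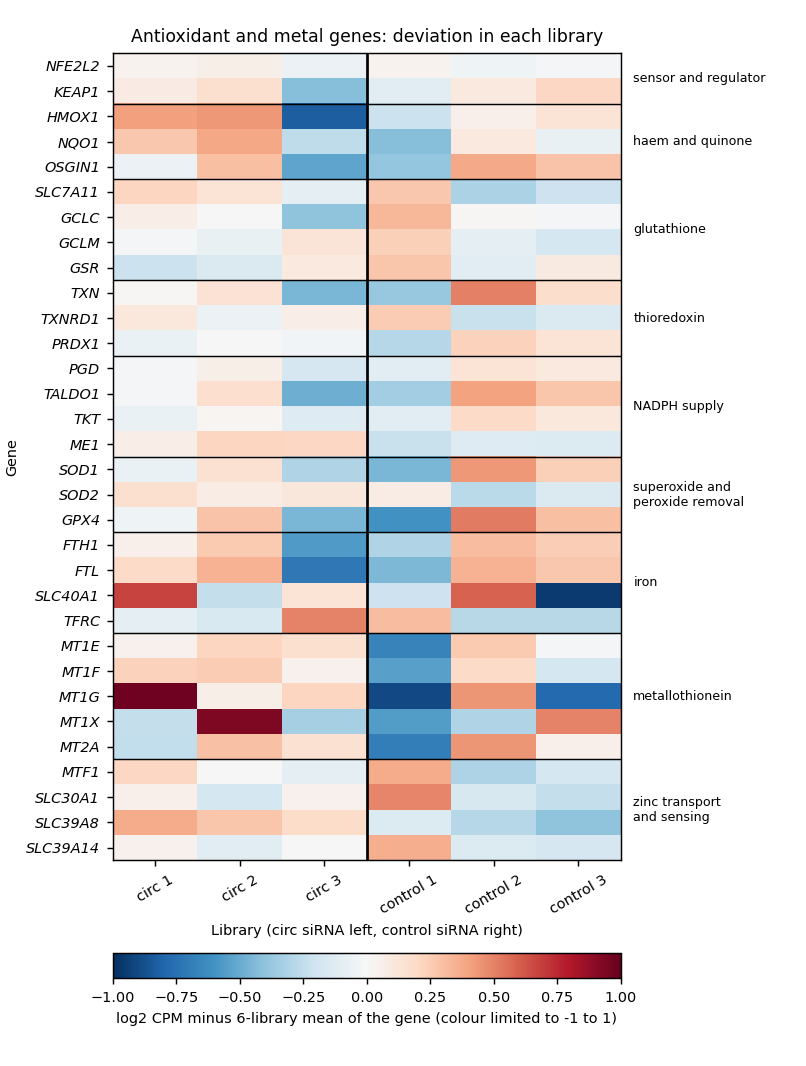
Log2 CPM of each tested row in each library minus its mean over all 6 libraries, with circ siRNA libraries left of the line and control siRNA libraries right of it. Circ library 3 and control library 1 share low values for TXN, TALDO1, GPX4, FTH1 and FTL, and SLC39A8 has all circ siRNA libraries above all control siRNA libraries.

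**Figure D4:**
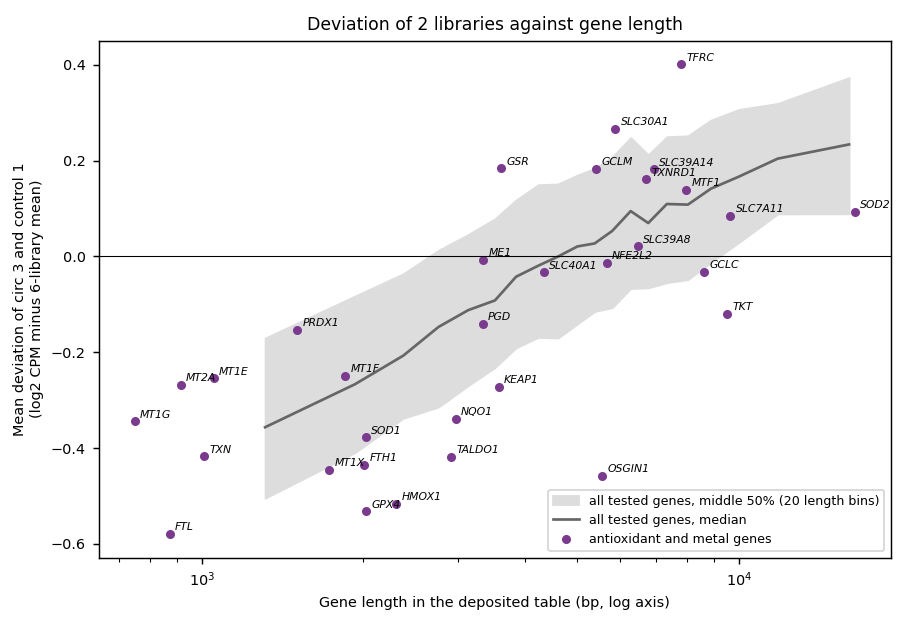
Mean deviation of circ library 3 and control library 1 (log2 CPM minus the 6-library mean) against gene length (log axis), for the members (points) and all tested genes (line, median in 20 length bins, with the middle 50% shaded). All 12 members under 2500 bp lie below 0, and 9 of the 13 members of 5000 bp or more lie above it.

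Neither the NRF2 gene nor its inhibitor passed the test. NFE2L2 (ENSG00000116044, chr2:177227595-177392697, minus strand, GRCh38 as in the table) had 507, 516 and 475 CPM in circ siRNA libraries 1 to 3, against 508, 480 and 488 CPM in control siRNA libraries 1 to 3. All 6 libraries lay within a narrow band and the groups overlapped. edgeR put the log2 fold change at 0.02 with an SE of 0.11 (95% interval -0.23 to 0.27, adjusted p = 0.975). KEAP1 (ENSG00000079999, chr19:10486125-10503558, minus strand) had 137.7, 144.9 and 96.4 CPM in circ siRNA libraries, against 119.9, 138.6 and 149.8 CPM in control siRNA libraries. Circ library 3 was the lowest of all, control library 1 the next lowest, and the groups overlapped. On the log2 scale the difference was -0.11 (95% interval -0.51 to 0.29, SE 0.17), with an edgeR adjusted p = 0.918.

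HMOX1, which encodes the inducible haem oxygenase that splits haem into biliverdin, iron and carbon monoxide, was the member of this role with the most counts. It had 298.8, 305 and 127.4 CPM in circ siRNA libraries, against 194.7, 233.5 and 248 CPM in control siRNA libraries (ENSG00000100292, chr22:35380361-35394207, plus strand). Circ libraries 1 and 2 were above every control library and circ library 3 was below every one, a coefficient of variation of 41.4% with circ siRNA, against 12.2% with control siRNA. This amounted to a log2 fold change of 0.11 (SE 0.30, interval at 95% from -0.58 to 0.80; adjusted p = 0.942 in edgeR). With control library 1 and circ library 3 dropped, the value was 0.33 (edgeR adjusted p = 0.0108). This fit leaves out the only circ library below the controls, and it called 7.38% of all tested genes higher. NQO1, a quinone reductase and a classic NRF2 target, had 174.6, 188.8 and 121.6 CPM with circ siRNA, against 107.5, 154.7 and 137.3 CPM with control siRNA, and its groups overlapped, at a log2 difference of 0.28 (interval at 95% from -0.18 to 0.74). Of the 50-base stretches of the NQO1 transcript, 18.1% also occur in other genes, so the counts of NQO1 are uncertain. OSGIN1, an oxidative stress-induced growth inhibitor, had a log2 fold change of -0.19 and overlapping groups.

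Genes of glutathione supply were split, with 2 positive and 2 negative values. SLC7A11, the cystine importer subunit that feeds glutathione synthesis, was the most counted of them (ENSG00000151012, chr4:138164097-138242349, minus strand). It had 388.1, 366.1 and 311.5 CPM in circ siRNA libraries, against 401.5, 267.8 and 289.2 CPM in control siRNA libraries. Control library 1 was the highest of all, while the other control libraries were below all circ libraries. edgeR put the log2 fold change at 0.15 with an SE of 0.18 (95% interval -0.25 to 0.56, adjusted p = 0.893). GCLC and GCLM encode the catalytic and modifier subunits of glutamate-cysteine ligase, the first step of glutathione synthesis, and had log2 fold changes of -0.22 and 0.01. The ratio of GCLC to GCLM counts was 1.27, 1.26 and 0.832 in circ siRNA libraries, against 1.28, 1.295 and 1.34 in control siRNA libraries, so that circ library 3 alone was low. GSR, glutathione reductase, had a log2 fold change of -0.18 and overlapping groups.

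Thioredoxin genes gave 1 positive and 2 negative values among the 3 tested. TXNRD1, thioredoxin reductase of the cytosol, had 412.8, 368.5 and 403.1 CPM in circ siRNA libraries, against 457.5, 329.6 and 347.3 CPM in control siRNA libraries (ENSG00000198431, chr12:104215779-104350307, plus strand). Control library 1 was the highest and the groups overlapped, with a log2 fold change of 0.06 (SE 0.15, 95% interval -0.29 to 0.41; edgeR adjusted p = 0.937). TXN (thioredoxin) and PRDX1 (a peroxiredoxin that it reduces) differed by -0.23 and -0.07 on the log2 scale, and the offsets for length and GC brought them to -0.10 and 0.04. Of the 50-base stretches of the PRDX1 transcript, 28.6% also occur in other genes, so the counts of PRDX1 are uncertain. SRXN1, the sulfiredoxin that restores over-oxidised peroxiredoxins, did not pass the filter on low counts. It had 11, 9 and 14 counts in circ siRNA libraries, against 7, 3 and 3 counts in control siRNA libraries. All circ libraries were above all control libraries, yet 84.7% of the 50-base stretches of its transcript also occur in AL121758.1, so its counts are uncertain. Without the filter its log2 fold change was 1.36 (edgeR adjusted p = 0.849).

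Enzymes that supply NADPH, the reductant for both systems, gave 1 positive and 3 negative values, and ME1 stood apart from the other 3. ME1 (ENSG00000065833, chr6:83210402-83431051, minus strand) is the cytosolic malic enzyme and has the ARE printed above. It had 26.1, 28.9 and 28.7 CPM in circ siRNA libraries, against 21.3, 22.7 and 22.6 CPM in control siRNA libraries. Every circ library was above every control library, and the libraries of each group lay close together (27.9 ± 1.59 CPM with circ siRNA and 22.2 ± 0.783 CPM with control siRNA, SD, n = 3 each). edgeR gave ME1 a log2 fold change of 0.33 with an SE of 0.12 (95% interval 0.05 to 0.61, unadjusted p = 0.0256), and it did not pass the adjusted threshold in edgeR (adjusted p = 0.677) or DESeq2 (adjusted p = 0.658). Leaving out any 1 library kept it between 0.30 and 0.38. PGD, an enzyme of the oxidative pentose phosphate branch, had the most counts of this role, with 451, 474.4 and 404 CPM in circ siRNA libraries, against 421.9, 501.1 and 486.3 CPM in control siRNA libraries. Its groups overlapped, with a log2 fold change of -0.08 (SE 0.13, 95% interval -0.38 to 0.21; edgeR adjusted p = 0.914). TALDO1 and TKT, of the non-oxidative branch, had log2 fold changes of -0.23 and -0.12.

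Removal of superoxide and peroxide was represented by 3 tested genes, of which SOD2 had a positive and SOD1 and GPX4 negative values. SOD2 (ENSG00000112096, chr6:159669069-159745186, minus strand) encodes the mitochondrial superoxide dismutase and is known to be induced by LPS. It had 3529.9, 3329.3 and 3425.7 CPM in circ siRNA libraries, against 3331.3, 2631.9 and 2859 CPM in control siRNA libraries. Control library 1 lay just above circ library 2, the lowest circ library, so the groups overlapped. On the log2 scale the difference was 0.22 (95% interval -0.09 to 0.53, SE 0.14), with an edgeR adjusted p = 0.864, and 0.13 with length and GC offsets. The second SOD2 row (ENSG00000285441), which overlaps the first and was not tested, had 2 to 11 counts with circ siRNA and 5 to 9 counts with control siRNA. SOD1, the cytosolic dismutase, and GPX4, which reduces lipid peroxides, had log2 fold changes of -0.18 and -0.19, which were -0.07 and -0.04 with the offsets.

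Iron genes differed more between libraries than between groups. FTL, the ferritin light chain (ENSG00000087086, chr19:48965309-48966879, plus strand), had 10870.4, 12149.4 and 5813 CPM in circ siRNA libraries, against 6991.1, 12122.7 and 11490.9 CPM in control siRNA libraries. Circ library 3 and control library 1 were low and the other 4 libraries were high. This amounted to a log2 fold change of -0.09 (SE 0.31, interval at 95% from -0.79 to 0.62; adjusted p = 0.957 in edgeR), and 0.05 with length and GC offsets. FTH1, the heavy chain, had 5052.1, 5848.4 and 3278.4 CPM in circ siRNA libraries, against 3949.2, 6025.5 and 5759.2 CPM in control siRNA libraries, with the same 2 libraries low. The ratio of FTL to FTH1 counts was 2.15, 2.08 and 1.77 in circ siRNA libraries, against 1.77, 2.01 and 1.995 in control siRNA libraries. It was thus also lowest in those 2 libraries. These counts are uncertain, since 78.7% of the 50-base stretches of the FTH1 transcript occur in other genes, 62.3% in BEST1, and 18.3% of those of FTL. TFRC, the transferrin receptor that imports iron, had 134.9, 129.2 and 202.8 CPM in circ siRNA libraries, against 178, 118.8 and 118.7 CPM in control siRNA libraries. It was highest where ferritin was lowest. The IREs of both are printed above, and the table gives lengths of 0.871 kb for FTL and 7.79 kb for TFRC. The part of IREs or of length in this pattern was not tested. SLC40A1, ferroportin, the iron exporter, had only 10 to 21 counts with circ siRNA and 5 to 18 counts with control siRNA.

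Metallothioneins, small cysteine-rich proteins that bind zinc and copper, had positive log2 fold changes for all 5 tested genes, and none passed the test. MT2A (ENSG00000125148, chr16:56608584-56609497, plus strand) made up 86.9% to 90.0% of the counts of these 5 genes in circ siRNA libraries and 89.5% to 91.1% in control siRNA libraries. It had 139.2, 202.3 and 183.7 CPM in circ siRNA libraries, against 102.7, 225.3 and 171.5 CPM in control siRNA libraries. Control library 1 was the lowest, control library 2 the highest, and all circ libraries lay between them. edgeR put the log2 fold change at 0.07 with an SE of 0.27 (95% interval -0.55 to 0.70, adjusted p = 0.958). Dropping control library 1 and circ library 3 gave -0.21, and the length and GC offsets gave 0.26, so its direction depended on the libraries used.

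MT1E and MT1F, less abundant metallothioneins, lay closer together with circ siRNA than with control siRNA, while MT1X was more spread with circ siRNA. MT1E had 11.4, 12.8 and 12.4 CPM in circ siRNA libraries, against 6.89, 13.3 and 10.95 CPM in control siRNA libraries (chr16:56625475-56627112, plus strand). MT1F had 7.24, 7.37 and 6.35 CPM in circ siRNA libraries, against 4.19, 7.03 and 5.44 CPM in control siRNA libraries (chr16:56657731-56660698, plus strand). For both genes control library 1 was the lowest and the groups overlapped, at control library 2. The log2 fold change was 0.24 for MT1E (SE 0.23, edgeR adjusted p = 0.889) and 0.33 for MT1F (SE 0.22, edgeR adjusted p = 0.870). Once offsets for length and GC were added, they were 0.40 and 0.47, with unadjusted p = 0.0291 and 0.0162 and edgeR adjusted p = 0.455 and 0.390. Leaving out control library 1 alone gave 0.013 and 0.17, and leaving out circ library 3 as well gave 0.0041 and 0.23. MT1G had 23, 11 and 12 counts in circ siRNA libraries, against 5, 14 and 5 counts in control siRNA libraries, with a log2 fold change of 0.90 (SE 0.54, edgeR adjusted p = 0.864), which ran from 0.51 to 1.61 with each library left out in turn. MT1X had 16, 38 and 14 counts in circ siRNA libraries, against 13, 14 and 26 counts in control siRNA libraries, with a log2 fold change of 0.33 (SE 0.49, edgeR adjusted p = 0.913). Both had overlapping groups at a handful of counts. Metallothionein genes are close relatives, and reads of shared stretches may have been split between genes. Of the 50-base stretches, 55.8% were shared with AC026461.1 for MT1X, and shares with any other gene were 14.3% for MT1G, 10.6% for MT1E, 4.88% for MT2A and 3.59% for MT1F. The sum of the 5 genes, which does not depend on how reads were split among them, was 160, 226 and 204 CPM in circ siRNA libraries, against 115, 247 and 190 CPM in control siRNA libraries, with overlapping groups. The 7 other metallothionein genes listed had 0 counts in all libraries, which allows at most 0.192 CPM each with circ siRNA and 0.197 CPM with control siRNA, for counting error only.

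SLC39A8 had the smallest p of the set. It encodes ZIP8, a transporter that brings zinc and manganese into the cytosol (ENSG00000138821, chr4:102251041-102431258, minus strand). It had 73.5, 68.9 and 64.6 CPM in circ siRNA libraries, against 51.7, 46.7 and 43.2 CPM in control siRNA libraries, or 69.0 ± 4.43 CPM with circ siRNA and 47.2 ± 4.27 CPM with control siRNA (SD, n = 3 each). Every circ library was above every control library, and circ library 3 and control library 1 fell in with their groups. edgeR gave SLC39A8 a log2 fold change of 0.55 with an SE of 0.12 (95% interval 0.27 to 0.83, unadjusted p = 0.00192), a 1.46-fold difference. It did not pass the threshold in edgeR (adjusted p = 0.403) and passed it in DESeq2 (adjusted p = 0.0381), which called 0.481% of all tested genes higher and 0.176% lower. The value was 0.50 with length and GC offsets (edgeR adjusted p = 0.200) and stayed between 0.49 and 0.62 whichever 1 library was dropped. With control library 1 and circ library 3 dropped, the value was 0.67 (edgeR adjusted p = 0.000529). Those were the highest control and the lowest circ library of SLC39A8, so leaving them out had to raise the value. This fit called 7.38% of all tested genes higher. None of the 50-base stretches of the SLC39A8 transcript occurred in another gene.

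With all libraries, the other zinc genes had log2 fold changes between -0.09 and 0.05 and overlapping groups. SLC39A14, which encodes the related importer ZIP14, had the most counts of this role. It had 620.1, 558.8 and 598.9 CPM in circ siRNA libraries, against 774.2, 545.1 and 535.4 CPM in control siRNA libraries (ENSG00000104635, chr8:22367249-22434129, plus strand). Control library 1 was the highest, and the other control libraries were below all circ libraries. On the log2 scale the difference was -0.06 (95% interval -0.44 to 0.32, SE 0.17), with an edgeR adjusted p = 0.942, and 0.13 without control library 1 and circ library 3. MTF1, the zinc-sensing factor, had 147.5, 128.2 and 120.2 CPM with circ siRNA, against 165.5, 103.6 and 113.3 CPM with control siRNA, and SLC30A1, the zinc exporter of the plasma membrane, had 15.3, 13.0 and 15.2 CPM with circ siRNA, against 20.7, 13.2 and 12.4 CPM with control siRNA. Their log2 fold changes were 0.05 and -0.09, and control library 1 was the highest for each. In the fit that drops control library 1 and circ library 3, MTF1 was at 0.35 (edgeR adjusted p = 0.0177). Those were the highest control and the lowest circ library of MTF1, and this fit called 7.38% of all tested genes higher. The difference between the fold change of SLC39A8 and those of the other zinc genes was not tested.

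**Figure D5:**
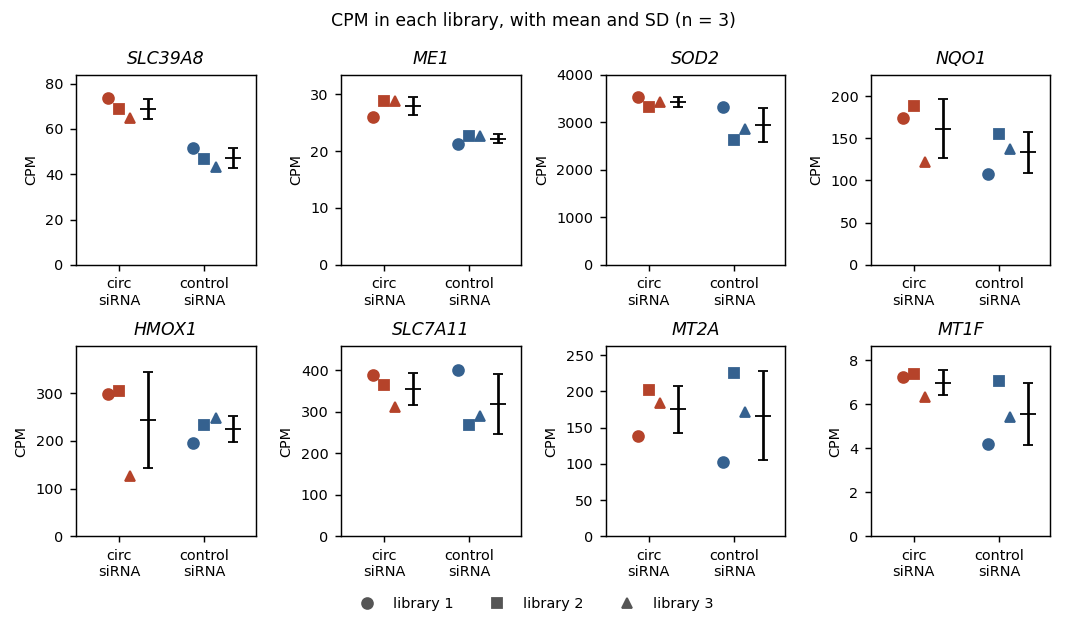
CPM of 8 members in each library (linear axes from 0), with circ siRNA left and control siRNA right, symbols for library numbers, and mean with SD (n = 3 each) beside them. The groups are separate for SLC39A8 and ME1 and overlap for the other 6 genes, and HMOX1 in circ library 3 lies below every other library.

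Further genes of the same pathways were taken from 10 lists of 166 symbols, of which 134 were tested. Values were positive for 60 and negative for 74, with a median of -0.02. An unadjusted p under 0.05 was found for 8 that were higher in value, 5.97% of them against 3.77% of all tested genes, and for 3 that were lower, 2.24% against 2.68%, and 0 passed the adjusted threshold in either direction in edgeR. Of these, 5 of the higher and 1 of the lower were among the 21 tested genes of iron handling, whose median was 0.12, a list set apart here after its values were seen and with no test of its own. BMP6, the growth factor that tells the liver to make hepcidin, had 61.7, 55.7 and 76.4 CPM in circ siRNA libraries, against 41.7, 33.9 and 34.6 CPM in control siRNA libraries. All circ libraries were above all control libraries, with a log2 fold change of 0.82 (SE 0.16, edgeR adjusted p = 0.332, DESeq2 adjusted p = 0.00428). Of all tested genes, 6.64% were separate in this direction and 0.481% were called higher by DESeq2. BMP6 was named for its small p, which favours separate groups. LRP1, the receptor that takes up haem bound to haemopexin among many other ligands, had 93.5, 86.1 and 161.3 CPM in circ siRNA libraries, against 80.7, 43.3 and 56.8 CPM in control siRNA libraries. Its groups were also separate, with a log2 fold change of 0.91 (SE 0.29; edgeR adjusted p = 0.599). FLVCR2, a relative of the haem exporter FLVCR1, had a log2 fold change of 0.53 (SE 0.20; edgeR adjusted p = 0.714). The others of these counts were SLC25A37 and CD163 with 0.34 and 0.43 and STEAP3 with -0.31, named after their values were seen.

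Zinc transporters outside the set had 7 positive and 9 negative values. SLC30A3, which loads zinc into vesicles, had 10.2, 11.3 and 8.47 CPM in circ siRNA libraries, against 14.4, 16.0 and 15.5 CPM in control siRNA libraries. All circ libraries were below all control libraries, as for 5.87% of all tested genes. The log2 fold change was -0.62 (SE 0.16, edgeR adjusted p = 0.475, DESeq2 adjusted p = 0.130). SLC30A6 and SLC39A4 had log2 fold changes of -0.30 and -0.47. In the list of aldo-keto and carbonyl reductases, many of them NRF2 targets, AKR1C3 had 1.45, 1.23 and 2.31 CPM in circ siRNA libraries, against 0.459, 0.986 and 0.907 CPM in control siRNA libraries. Its log2 fold change was 1.09 and that of AKR1C2 was 1.30, with edgeR adjusted p = 0.684 and 0.735, and NQO2 had 0.20. These sequences are close relatives, and AKR1C2 reached 8.53 CPM in circ library 3 alone.

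The NRF2 network list had 10 positive and 10 negative values, and EPHX1, UGDH and CES1, all enzymes of detoxification, gave 0.26, -0.28 and 0.26 on the log2 scale. The glutathione list had 11 positive and 15 negative values, led by the extracellular peroxidase GPX3 at 0.45, the transferase GSTM1 at 0.46 and GGCT at -0.67. The thioredoxin list had 5 positive and 10 negative values, with MSRA at -0.32, PRDX4 at 0.36 and TXN2 at -0.24. In the pentose phosphate and NADPH list, with 4 positive and 8 negative values, IDH1, the cytosolic isocitrate dehydrogenase, was lower in every circ library. It had 21.6, 19.8 and 20.3 CPM in circ siRNA libraries, against 26.3, 25.9 and 24.0 CPM in control siRNA libraries (log2 fold change -0.31, edgeR adjusted p = 0.724). Such separation was seen for 5.87% of all tested genes. RPE had a log2 fold change of -0.16. The phagocyte oxidase list, with 4 values in each direction, had DUOX1 at 1.26 and NOX5 at -0.52, both near 1 CPM, and CYBB, the catalytic subunit of the phagocyte oxidase, at 0.21. In copper handling, with 3 positive and 5 negative values, SLC31A1, COX17 and ATOX1 had log2 fold changes of -0.15, -0.28 and -0.27.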

How the data were processed

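Libraries were made from poly-A RNA and sequenced from both ends, per the labels' protocols. The submitters' processing notes name CASAVA, cutadapt, HISAT2 and build GRCh38. Tool versions, the counter, strand settings and annotation were not given in the sources used here, so values of overlapping and near-identical genes are uncertain. The authors deposited raw counts, a whole number for each gene in each library. The FPKM values deposited beside it equal count over listed length and library total, as checked, and entered no test.

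Counts were tested with edgeR 4.0.16 (R 4.3.3) by the two-sided quasi-likelihood F test, after TMM scaling and filterByExpr at a minimum count of 10, with group as the sole term and Benjamini-Hochberg adjustment over 12469 genes. A gene was called at an adjusted p under 0.05. Log2 fold changes are circ siRNA over control siRNA. CPM values are counts over TMM-scaled library sizes. A count of 3 corresponds to 0.172 to 0.197 CPM. No libraries of a group agreed within sampling noise (chi-square per gene at least 5.73).

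Alternatives were DESeq2 1.42.0, limma-voom (limma 3.58.1), DESeq2 size factors, library totals, no filter, a replicate block, length and GC offsets per library (natural splines with 4 degrees of freedom, prior count 2, fitted without group labels), each library left out, and control library 1 with circ library 3 left out. In counts simulated for this comparison over 12358 genes, edgeR called 57.1% of genes changed 2-fold and 16% of those changed 1.5-fold. Each size of change was given to 50 genes, and 6 unchanged genes were called. Genes were drawn independently and without the trends with gene length seen here, so the rates may not hold for these data.

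The members, lists and left-out libraries were chosen with earlier results of these data known. Values per library are given for members with an unadjusted p under 0.05 or a DESeq2 call, the member of highest CPM in each role, NFE2L2, KEAP1, HMOX1 and the metallothioneins, with others added where a result turned on them. Up to 3 genes with the smallest p are named per wider list. A gene that this rule names is not reported here. Sequence searches used Python 3.11.15 and pandas 2.3.3. Gene coordinates are those of the table, and 19914 identifiers matched GENCODE 29.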

Additional observations from a re-analysis of the deposited data

How the results depend on the processing

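Of 480 log2 fold changes of members under the alternatives, 436 neither changed sign nor crossed the threshold, 36 changed sign without being called, and 8 passed the threshold anew. Members called higher numbered 0 in edgeR with all libraries, 1 with DESeq2 (SLC39A8) and 6 without control library 1 and circ library 3. Members called lower numbered 0, 0 and 1. Genes of the wider lists, counted after the data were seen, numbered 0, 1 and 6 higher and 0, 0 and 11 lower in these fits. The last counts are 4.48% and 8.21% of the 134 genes, against 7.38% and 7.43% of all tested genes. The cause of these differences was not tested. The fit without control library 1 and circ library 3 drops the libraries that differ most from the rest, and its larger counts do not measure the size of an effect. At an adjusted p under 0.10, 0 members were called.

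Whether the replicate numbers pair the libraries was not settled. Deviations of same-numbered libraries correlated at -0.17, 0.46 and -0.37, and those of differently numbered libraries at -0.57 to 0.53. Deviations of the 3 libraries of a group sum to 0, so these values cannot exclude a pairing. With the replicate block 0 members were called higher and 0 lower, as with the block and length and GC offsets together, where NFE2L2 had a log2 fold change of -0.0304, PRDX1 0.0351 and FTL 0.0210. With the offsets alone, sign changes were seen for NFE2L2 (-0.0259), GCLM (-0.0016), PRDX1 (0.0396) and FTL (0.0459). Without control library 1 and circ library 3 they were seen for GCLC (0.0406), MT2A (-0.21), SLC30A1 (0.15) and SLC39A14 (0.13).

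With each library left out in turn, the log2 fold change ran from -0.0049 to 0.0559 for NFE2L2, -0.22 to 0.0544 for KEAP1, -0.0808 to 0.42 for HMOX1, -0.41 to 0.0040 for OSGIN1, -0.0678 to 0.15 for GCLM, -0.0272 to 0.22 for TXNRD1 and -0.21 to 0.0294 for PRDX1. It ran from -0.40 to 0.0118 for SOD1, -0.45 to 0.0417 for GPX4, -0.33 to 0.0557 for FTH1, -0.29 to 0.17 for FTL, -0.0690 to 0.39 for TFRC, -0.25 to 0.75 for MT1X and -0.18 to 0.35 for MT2A. It ran from -0.0788 to 0.29 for MTF1, -0.23 to 0.18 for SLC30A1 and -0.16 to 0.14 for SLC39A14. Tested rows with all circ siRNA libraries above all control siRNA libraries numbered 2 with all libraries and 2 to 9 with 1 left out, and rows with all below numbered 0 and 0 to 7, in each case most without control library 1. Without circ library 3 these counts were 5 and 1, without control library 2 they were 5 and 0, and without circ library 2 they were 3 and 0. Separation is easier with fewer libraries: of all tested genes, 22.2% lay above and 23.3% below without control library 1 (28.1% and 21.9% of tested member rows), 12.8% and 11.9% without circ library 3, 8.71% and 8.22% without control library 2, and 10.7% and 9.26% without circ library 2. The summed metallothionein difference, circ siRNA minus control siRNA, was 12.6 CPM with all libraries and ran from -22.1 to 44.3 CPM.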
